A study of Mus musculus with 6 samples.

Results

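The collagen hydroxylases and their chaperone are 7 genes whose products modify or hold newly made procollagen chains in the endoplasmic reticulum: P4ha1, P4ha2, P4ha3, Plod1, Plod2, Plod3 and Serpinh1. They were taken from the deposited table by gene symbol, by a rule that uses no measured value, and all 7 were among its 13595 genes. RNA was sequenced in 6 libraries of CD31-positive cells, a selection for endothelial cells, isolated from livers of male and female C57BL6/J mice aged 4 weeks and grown in culture. Every library came from cells given 100 µM indoxyl sulfate, a tryptophan metabolite that activates the aryl hydrocarbon receptor, together with hypoxia and nutrient deprivation for 6 hours. The groups were 3 libraries labelled male and 3 labelled female, each numbered 4, 5 and 6, so the single contrast was that of sex with ligand and low oxygen shared by all. The labels do not say whether a number stands for a mouse, an isolation or a well, and p-values therefore measure only the spread between these libraries. Cells without the ligand or kept in normal oxygen were not analysed here.

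Collagen folds into a stable triple helix only after prolyl 4-hydroxylase has hydroxylated many of its prolines. That enzyme is a tetramer of catalytic alpha subunits, encoded by P4ha1, P4ha2 or P4ha3, and beta subunits of protein disulfide isomerase, encoded by P4hb. The Plod genes encode lysyl hydroxylases, whose hydroxylysines carry sugars and form the cross-links between collagen molecules: Plod1 acts on lysines of the helix, Plod2 on those of the telopeptides at the ends of the chains, and Plod3 also transfers sugars. These enzymes use oxygen, 2-oxoglutarate, iron and ascorbate, and P4ha1, P4ha2 and Plod2 are known targets of hypoxia-inducible factors. Serpinh1 encodes HSP47, a chaperone that binds the folded procollagen helix and does not itself use oxygen.

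Values are normalized read counts, that is, reads divided by 1 factor per library. The libraries held from 22303270 to 31189363 reads. Male 4 stood apart: 958 of 12568 tested genes (7.62%) lay more than 0.5 on the log2 scale beyond both other male libraries, against 36 to 131 genes for the other 5 libraries. The tests of the 7 genes and the counts of the pathway lists are therefore given with and without male 4. The sex labels were not fully borne out, because Xist was at 234 to 324 in the libraries labelled female and at most 0.458 in the others, but all 4 Y-linked genes checked were read in both groups. Ddx3y (48.5 to 57.7 in female-labelled and 47.2 to 76.3 in male-labelled libraries) and Uty (22.2 to 27.7 and 23.7 to 32.0) overlapped. Eif2s3y was at 51.3% and Kdm5d at 54.8% of the male level (limma adjusted p 5.76e-06 and 0.000129). The endothelial marker Pecam1, which encodes CD31, was present in every library but lower in those labelled female (73.5 to 74.5 against 391 to 423).

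Of the 7 genes, 2 were higher in the female-labelled libraries, 2 were lower, and 3 did not pass the test. A gene was called when its limma p, adjusted over all 12568 genes tested, was under 0.05. Of all tested genes, 34.6% were called higher and 34.6% lower by this rule, 69.3% together, so that 4 calls among 7 genes is no more than the table as a whole showed. The lower genes were Plod1 and Plod3, and the higher ones P4ha3 and Serpinh1. Without male 4, 3 were called higher, with Plod2 added, and 3 lower, with P4ha2 added, where 38.9% and 35.9% of 12187 tested genes were called. When any other single library was left out, 1 was called higher and 2 or 3 lower. The groups did not overlap for 2 higher and 3 lower members, a pattern found in 37.1% and 37% of tested genes. The median log2 fold change of the 7 was -0.13, and that of all tested genes 0.01. In bulk libraries, fewer cells of a type that expresses a gene and less RNA per cell cannot be told apart.

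**Figure D1:**
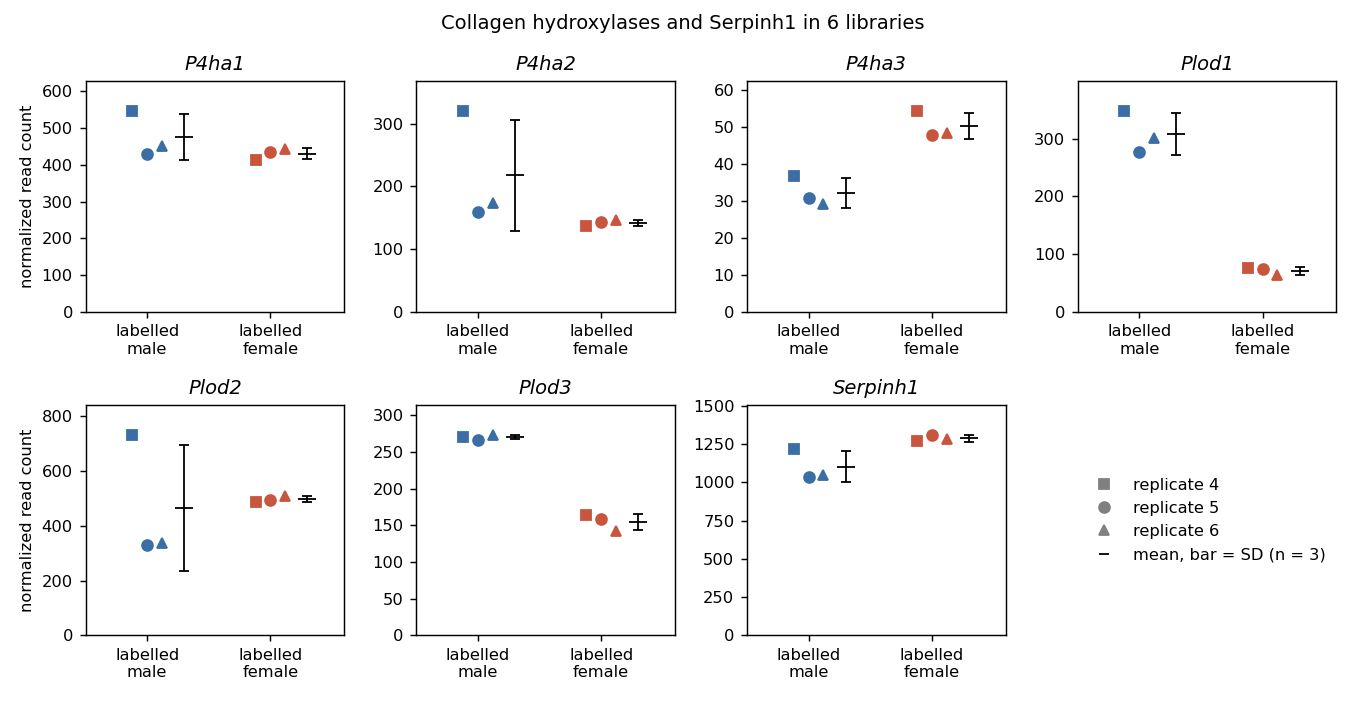
Normalized read count of each gene (vertical axes, starting at 0) in the 3 libraries labelled male (blue) and the 3 labelled female (red), with the mean and SD in black. Plod1 and Plod3 are lower and P4ha3 and Serpinh1 higher in every library labelled female, while male 4 (blue square) lies far above male 5 and 6 for P4ha2 (320 against 159 and 173) and Plod2 (733 against 330 and 337).

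Among the lysyl hydroxylases, Plod1, the helical enzyme, differed most of the 7 genes. It was read at 348, 276 and 301 in male 4, 5 and 6, and at 75.4, 74.8 and 63.2 in female 4, 5 and 6. The groups were far apart, and the lowest male library held over 3 times the highest female value. The mean was 308 ± 36.3 (SD, n = 3) for male and 71.1 ± 6.89 (SD, n = 3) for female, which is 23.1% of the male level. The log2 fold change was -2.10 ± 0.10 (SE; adjusted p 6.39e-07 by limma), larger in size than that of 94.9% of tested genes. Without male 4 it was -2.01 (limma adjusted p 1.90e-08).

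Plod3, the hydroxylase that is also a glycosyltransferase, was lower as well, by less. Its values were 271, 267 and 273 in male 4, 5 and 6 and 164, 159 and 142 in female 4, 5 and 6. The male libraries were nearly equal, male 4 included, and all lay above the female ones. The means were 270 ± 3.18 and 155 ± 11.3 (SD, n = 3), which differed on the log2 scale by -0.80 ± 0.07 (SE; adjusted p 1.29e-05 by limma), and -0.80 again without male 4.

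Plod2, the telopeptide lysyl hydroxylase, did not pass the test over all 6 libraries. Its values were 733, 330 and 337 in male 4, 5 and 6 and 488, 496 and 511 in female 4, 5 and 6. The 3 female libraries agreed closely and lay between male 4, which was 2.20 times the mean of the other male libraries, and those others. Over all 6 libraries the log2 fold change was 0.20 ± 0.27 (SE; adjusted p 0.528 by limma). Without male 4, Plod2 was called higher in the libraries labelled female, at 0.58 ± 0.04 (SE; adjusted p 1.20e-06 by limma). Male 4 thus decides this result, and without male 5 or male 6 instead the log2 fold change was 0.0035 and 0.02.

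The shares of the 3 genes in the lysyl hydroxylase RNA are given as a description, with no test. Levels were put on a per-length scale, the normalized read count per kilobase of the longest coding transcript, to compare genes with each other. Plod2 made up 64.5% to 68.9% of the summed Plod level in the libraries labelled female, against 35.1% and 34.3% in male 5 and 6 and 51.3% in male 4. Plod1 made up 9.63% to 11.3% in the female libraries and 27.5% to 34.6% in the male ones. In male 5 and 6 the 3 genes stood near equal shares, whereas 1 gene prevailed in every female library. The summed level of the 3 genes was 205 ± 2.57 per kilobase in the libraries labelled female and 305 ± 73.7 in those labelled male (SD, n = 3), or 257 and 268 in male 5 and 6.

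The promoters of Plod1 and Plod3 are shown because both genes were lower in the same libraries. A promoter here is the 250 bases before the RefSeq start of a gene, on its own strand, in build GRCm38.p6, matched by symbol for 6 of the 7 genes. The submitters' processing notes name mm39, so these positions are not those of the deposited values. Capitals mark ACGTG or GCGTG on either strand, the core letters of the element bound by hypoxia-inducible factors. The Plod1 window lies at chr4:147936777-147937026 (minus strand) and the Plod3 window at chr5:136986769-136987018 (plus strand).
Plod1: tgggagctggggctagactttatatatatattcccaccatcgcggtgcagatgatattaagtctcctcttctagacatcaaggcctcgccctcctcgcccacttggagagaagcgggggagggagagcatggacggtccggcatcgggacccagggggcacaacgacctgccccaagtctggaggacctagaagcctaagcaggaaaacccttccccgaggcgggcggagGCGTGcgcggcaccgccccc
Plod3: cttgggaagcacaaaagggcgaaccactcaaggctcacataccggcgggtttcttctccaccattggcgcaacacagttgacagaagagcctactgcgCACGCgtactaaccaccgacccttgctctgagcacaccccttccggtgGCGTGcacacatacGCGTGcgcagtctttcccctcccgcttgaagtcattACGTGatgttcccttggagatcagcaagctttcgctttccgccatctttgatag

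Plod1 held 1 match and Plod3 4, none overlapping another. Of 32851 promoter windows of this length, 38.6% held at least 1 match and 2.58% held 4 or more. The window is GC-rich in both (61.6% and 55.6%, where the median window has 52.4%), and both matches and GC content are descriptions of sequence only.

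Among the catalytic subunits of prolyl 4-hydroxylase, P4ha1, with the highest read count of the 3, did not pass the test. It was read at 546, 429 and 451 in male 4, 5 and 6 and at 413, 435 and 444 in female 4, 5 and 6. The groups overlapped, and the other 5 libraries lay between 413 and 451, below male 4. The log2 fold change was -0.13 ± 0.09 (SE; adjusted p 0.224 by limma), and -0.03 ± 0.05 (SE; adjusted p 0.575 by limma) without male 4.

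P4ha2 showed the same high male 4 as Plod2. Its values were 320, 159 and 173 in male 4, 5 and 6 and 136, 143 and 146 in female 4, 5 and 6. Every male library lay above every female one, but male 4 was 1.93 times the mean of the other male libraries. The log2 fold change was -0.54 ± 0.23 (SE; adjusted p 0.0619 by limma) and missed the threshold. It passed with a smaller size without male 4 (-0.23, limma adjusted p 0.00420), and with a larger one without male 5 (-0.73, limma adjusted p 0.0189) or male 6 (-0.67, limma adjusted p 0.0466). It stayed uncalled without female 4 (-0.51, limma adjusted p 0.152), female 5 (-0.55, 0.124) or female 6 (-0.56, 0.120). On the reads recovered from the values it also passed, with edgeR's quasi-likelihood test (-0.62, adjusted p 0.0444) and DESeq2 (-0.62, adjusted p 0.0120), but not with voom (-0.55, adjusted p 0.0614).

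P4ha3, the least abundant subunit, was higher in the libraries labelled female. It was read at 36.8, 30.6 and 29.0 in male 4, 5 and 6 and at 54.2, 47.9 and 48.2 in female 4, 5 and 6. The groups were apart, and no library lay far from its own group. The means were 32.1 ± 4.11 and 50.1 ± 3.55 (SD, n = 3), a 1.56-fold higher level in the libraries labelled female. The log2 fold change was 0.63 ± 0.10 (SE; adjusted p 0.000624 by limma), and 0.73 without male 4 (limma adjusted p 1.14e-05). These values rest on 803 to 1306 reads per library.

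The ratio of P4ha2 to P4ha1 per kilobase was 1.046, 0.661 and 0.686 in male 4, 5 and 6 and 0.588, 0.588 and 0.586 in female 4, 5 and 6. Its mean was 0.797 for male and 0.587 for female, with no overlap. The share of P4ha3 in the summed alpha subunit level was 11.2% ± 1.07 in the libraries labelled female and 6.11% ± 0.763 in those labelled male (SD, n = 3). The summed level itself was 190 ± 4.78 and 227 ± 56.5 per kilobase (SD, n = 3), and in male 5 and 6 it was 189 and 200, inside or near the female range of 185 to 195. Compared per length, P4ha1 depends on which transcript is used, since its coding transcripts over 2000 bases run from 2387 to 4043 bases.

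**Figure D2:**
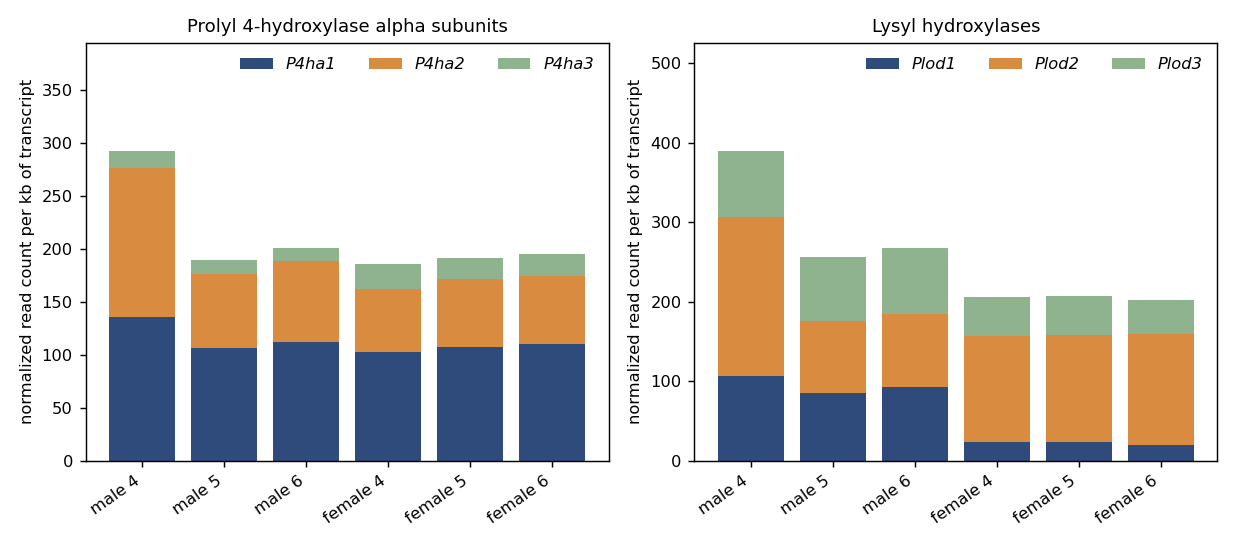
Normalized read count per kilobase of transcript (vertical axes) in each of the 6 libraries, stacked by gene, for the prolyl 4-hydroxylase alpha subunits (left) and the lysyl hydroxylases (right). The alpha subunit total is 185 to 200 in 5 libraries and 292 in male 4, and the Plod1 layer shrinks from 85.2 or more in the libraries labelled male to 23.2 or less in those labelled female.

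The 3 alpha subunit promoters are shown because P4ha3 alone of the 3 was called over all 6 libraries. The windows lie at chr10:59323046-59323295 (P4ha1), chr11:54100674-54100923 (P4ha2) and chr7:100285270-100285519 (P4ha3) in GRCm38.p6, all on the plus strand, with the same letters in capitals.
P4ha1: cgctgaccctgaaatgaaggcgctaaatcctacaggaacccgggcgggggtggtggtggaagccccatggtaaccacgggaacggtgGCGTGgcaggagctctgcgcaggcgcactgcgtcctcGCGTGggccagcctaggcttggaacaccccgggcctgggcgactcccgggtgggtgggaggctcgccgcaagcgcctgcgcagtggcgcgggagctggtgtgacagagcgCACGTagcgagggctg
P4ha2: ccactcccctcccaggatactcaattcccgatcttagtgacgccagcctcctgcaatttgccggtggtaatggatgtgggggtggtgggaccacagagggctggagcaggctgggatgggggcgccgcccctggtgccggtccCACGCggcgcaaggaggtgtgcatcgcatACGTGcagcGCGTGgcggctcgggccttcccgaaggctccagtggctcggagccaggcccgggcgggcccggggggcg
P4ha3: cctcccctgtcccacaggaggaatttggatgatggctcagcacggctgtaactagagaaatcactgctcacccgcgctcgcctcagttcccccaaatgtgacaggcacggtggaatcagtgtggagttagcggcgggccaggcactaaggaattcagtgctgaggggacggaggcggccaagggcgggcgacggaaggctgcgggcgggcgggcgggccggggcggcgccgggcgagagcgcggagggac

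P4ha1 and P4ha2 held 3 matches each, a count that 6.58% of promoter windows reach or pass, and P4ha3 held 0. Their GC content was 69.6%, 70.0% and 67.2%. The Serpinh1 window held 1 match. No match says only that these letters are absent from the window.

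Serpinh1, the chaperone, was the most abundant of the 7 genes and slightly higher in the libraries labelled female. It was read at 1222, 1039 and 1050 in male 4, 5 and 6 and at 1270, 1312 and 1286 in female 4, 5 and 6. The groups were apart, with male 4 nearest to the female range. The means were 1103 ± 102 and 1289 ± 21.2 (SD, n = 3), a 1.17-fold difference with a log2 fold change of 0.23 ± 0.08 (SE; adjusted p 0.0297 by limma). Without male 4 it was 0.30 (limma adjusted p 8.42e-05). The call was lost when any other library was left out, at log2 fold changes of 0.19 without male 5 (limma adjusted p 0.0996), 0.19 without male 6 (0.102), 0.24 without female 4 (0.0691), 0.22 without female 5 (0.105) and 0.23 without female 6 (0.0750). With the replicate number as a block it was also lost (0.23, limma adjusted p 0.0605). Serpinh1 and P4ha3, the 2 genes called higher, both lie on chromosome 7, with 17 protein-coding genes starting between them in the RefSeq annotation of GRCm38.p6.

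**Figure D3:**
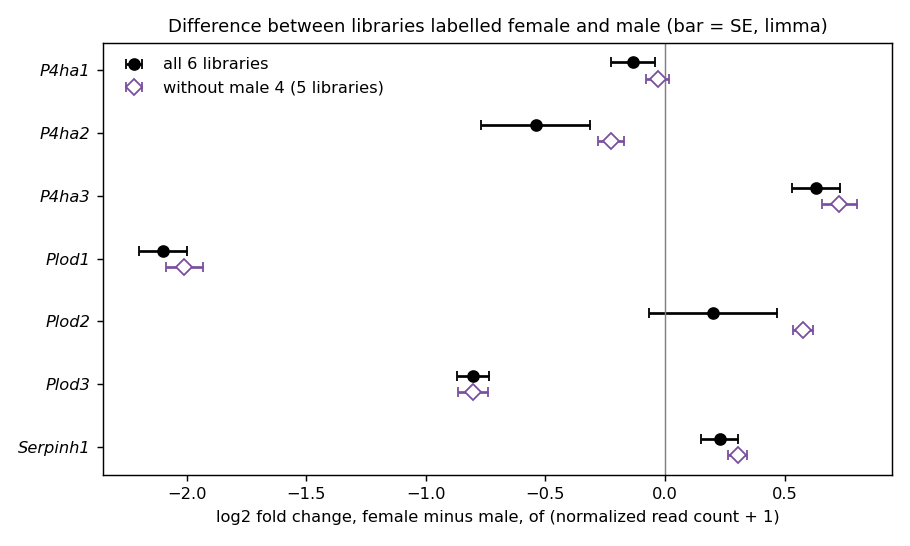
Log2 fold change of female minus male on the log2(value + 1) scale (horizontal axis) for each gene, with its limma SE, over all 6 libraries (black circles) and without male 4 (open diamonds). Leaving out male 4 moves Plod2 from 0.20 to 0.58 and P4ha2 from -0.54 to -0.23 and narrows both errors, while Plod1 and Plod3 hardly move.

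Per kilobase, Serpinh1 stood above the 6 enzymes in every library, at 485 ± 45.1 and 567 ± 9.32 (SD, n = 3) in the libraries labelled male and female. In the libraries labelled female the order that followed was Plod2 (136 ± 3.13), P4ha1 (107 ± 3.97), P4ha2 (62.6 ± 2.22), Plod3 (47.2 ± 3.46) and Plod1 (21.9 ± 2.12; SD, n = 3 for each), and P4ha3 came last at 20.3 to 23.0. All neighbours in this order were apart in all 3 libraries except Plod1 and P4ha3. With the shortest coding transcript over 2000 bases P4ha1 would stand at 180, above Plod2. In the libraries labelled male the order was Plod2 (127 ± 62.9), P4ha1 (118 ± 15.5), P4ha2 (96.0 ± 39.4), Plod1 (95.1 ± 11.2), Plod3 (82.4 ± 0.968) and P4ha3 (13.6 ± 1.74; all SD, n = 3). There the first 4 overlapped with their neighbours in the order, Plod1 and Plod3 were apart by little, and P4ha3 lay below all. Without male 4 the order was P4ha1 (109), Plod2 (91.1), Plod1 (89.0), Plod3 (82.4), P4ha2 (73.3) and P4ha3 (12.6). With the shortest transcript, P4ha1 would stand at 199 over the 3 male libraries. Plod1 stood with the other enzymes in male libraries and with the scarce P4ha3 in female ones.

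The authors' deposited table calls fewer genes, 25.8% of its 13595 at a false discovery rate under 0.05. Of the 7, the authors' deposited table calls Plod1 (fold change -4.34, false discovery rate 2.75e-07) and Plod3 (-1.75, 0.0399). In the authors' deposited table, P4ha3 (1.56, false discovery rate 0.0755), P4ha2 (-1.53, 0.160), Serpinh1 (1.17, 0.578), P4ha1 (-1.10, 0.697) and Plod2 (1.07, 0.862) are not called.

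A list of 7 genes held the beta subunit and the prolyl 3-hydroxylase family with its partners. Of these, 4 were called lower, 2 higher and 1 neither, with the same counts of calls without male 4. The median log2 fold change was -0.16, and 34.6% of all tested genes were called lower. P4hb, the beta subunit, was read at 2295, 1987 and 2127 in the male libraries and 1307, 1336 and 1222 in the female ones, a log2 fold change of -0.73 ± 0.08 (SE; adjusted p 6.22e-05 by limma). Its groups were apart, and without male 4 the value was -0.67. Ppib, the prolyl isomerase cyclophilin B, fell by 0.53 on the log2 scale and Crtap, its partner in the prolyl 3-hydroxylase complex, by 0.16. P3h3, listed as Leprel2, fell to 38.1% of the level in male libraries (-1.37 on the log2 scale). P3h4, listed as Leprel4, rose by 0.28 and P3h1, listed as Lepre1, by 0.19, the latter with overlapping groups and a limma adjusted p of 0.0496. P3h2, listed as Leprel1, had a log2 fold change of -0.11 at a normalized read count of 2.71 to 4.48.

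Genes that fold and glycosylate procollagen were called lower in 6 of 12 tested cases and higher in 2, where 34.6% of all tested genes were called in each direction. The same share is the background of every list count over all 6 libraries that follows. For counts without male 4 the background is 38.9% called higher and 35.9% called lower. No list was tested against either. Ero1l, the oxidase that recharges protein disulfide isomerase, fell to 39.7% of the level in male libraries (-1.30 on the log2 scale). It was also high in male 4, at 8938 against 5442 and 5844. Tmem38b, a channel of the endoplasmic reticulum, fell by 1.16. The increases were small: Fkbp14, a prolyl isomerase, rose by 0.24 and Glt25d1 (Colgalt1), a collagen galactosyltransferase, by 0.16. Without male 4, 4 were called higher and 6 lower.

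For procollagen export, 2 of 10 tested genes were called higher and 3 lower, and without male 4 the counts were 4 and 3. Sec23a, of the COPII coat, rose by 0.54 and Klhl12, an adaptor for large COPII carriers, by 0.51. Creb3l2, a transcription factor of secretory genes, fell by 0.46 and Tfg by 0.24, as log2 fold changes.

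The collagen chains are the substrates of the hydroxylases. Of 9 tested fibrillar collagen chains, 6 were called lower and 2 higher, also without male 4, with a median log2 fold change of -1.18. Col3a1 fell to 17.9% of its male level (-2.47) and Col5a3 to 28.3% (-1.69), while Col11a1 rose to 578.5% (2.60) and Col5a2 to 278% (1.49). Of 6 tested basement membrane chains, 4 were called higher and 2 lower, also without male 4. Col4a5 (1.53) and Col4a6 (1.31) rose, and Col15a1 (-4.27) and Col18a1 (-3.98), both of the multiplexin type, fell to 4.97% and 6.26% of their male levels. The summed normalized read count of fibrillar chains was 2893 to 3121 in the libraries labelled female and 3655 to 4710 in those labelled male, the highest in male 4. For the basement membrane chains the ranges, 6063 to 6671 and 5822 to 6464, overlapped.

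**Figure D4:**
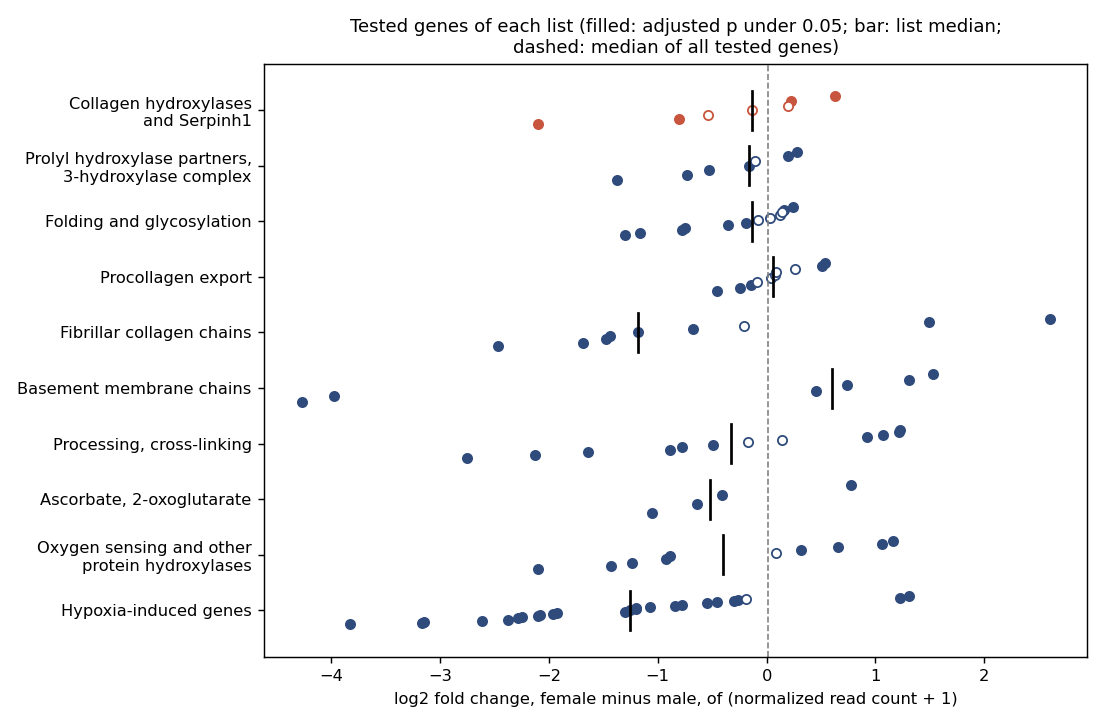
Log2 fold change of female minus male (horizontal axis) for each tested gene of the collagen hydroxylases with Serpinh1 (top row, red) and of 9 related lists (blue), filled where the limma adjusted p is under 0.05. The 7 genes run from -2.10 to 0.63, and the median bars lie furthest to the left for hypoxia-induced genes (-1.26) and fibrillar chains (-1.18).

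Among 12 tested genes of procollagen processing and cross-linking, which act on the products of these enzymes, 4 were called higher and 6 lower, and 5 and 6 without male 4. Lox, a lysyl oxidase that starts cross-links from lysines and hydroxylysines, rose to 230% of its male level (1.22 on the log2 scale) and Pcolce2, an enhancer of procollagen cleavage, to 237% (1.22). Loxl1 fell to 14.4% (-2.75) and Adamts2, which removes the amino-terminal propeptide, to 22.5% (-2.13). Of 4 tested genes for cofactor supply, 3 were called lower, also without male 4, among them Slc23a2, an ascorbate transporter (-1.05), and Idh2, which makes 2-oxoglutarate in mitochondria (-0.64), and Gsto1, which can reduce dehydroascorbate, was higher (0.78).

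Of 10 tested genes for other 2-oxoglutarate hydroxylases of proteins, 5 were called lower and 4 higher, also without male 4. Egln3, a prolyl hydroxylase of hypoxia-inducible factor and itself induced by it, fell to 23.0% (-2.10) and Jmjd6 to 36.8% (-1.43). Hif1an, the asparaginyl hydroxylase of the factor, rose to 228% (1.16) and 2410016O06Rik (Riox1), a ribosomal oxygenase, to 256% (1.06) from a low male level of 2.22.

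Hypoxia-induced genes were lower in the libraries labelled female, with 22 of 25 called lower (23 without male 4), 2 higher and a median log2 fold change of -1.26. Ddit4 (-3.83) and Car9 (-3.16) showed the largest decreases, and Pfkfb4 (1.31) and Lox (1.22) rose. Of the 3 hydroxylases named above as targets of hypoxia-inducible factors, P4ha1 (-0.13) and Plod2 (0.20) were not called and P4ha2 (-0.54) missed the threshold. Without male 4, Plod2 was called higher (0.58, limma adjusted p 1.20e-06) and P4ha2 lower (-0.23, limma adjusted p 0.00420), and P4ha1 stayed uncalled. In male 4, hypoxia genes diverged: 3 of 25 lay more than 0.5 (log2) above both other male libraries (Pdk1, Ero1l and Lox) and 4 as far below both (Car9, Ddit4, Adm and Pfkfb4). The high P4ha2 and Plod2 of male 4 thus went with high values of some hypoxia genes and low values of others. Among stellate, fibroblast and mural markers, Acta2, Tagln and Cnn1 were 2.61, 2.30 and 2.22 times the mean of male 5 and 6 in male 4, and Rgs5 was 0.552 times. The part of either set in the values of P4ha2 and Plod2 was not tested.

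Markers of cell types moved with the groups. The 18 endothelial markers summed to 2548 to 2633 in male and 1284 to 1349 in female libraries, with 12 of 15 tested called lower and 2 higher. The higher ones were Ptprb (3.47 on the log2 scale) and Eng (0.40). The 14 stellate, fibroblast and mural markers found of 16 summed to 1627 to 1665 and 3921 to 4769, with 6 of 13 tested called higher and 5 lower. Most of the difference in this sum was that of the contractile genes Acta2 (45.9 to 134 and 1513 to 1887) and Tagln (32.5 to 83.6 and 900.3 to 1179), while Pdgfrb (-3.13 on the log2 scale), Rgs5 (-2.17), Lum (-2.11), Pdgfra (-1.61) and Dcn (-1.43) fell. The 8 mesothelial markers summed to 118 to 121 and 430 to 455, with 6 of 7 tested called higher. Krt18, most of the male sum (93.8 to 98.2), was called lower (-0.94 on the log2 scale). The 7 cholangiocyte markers found of 8 summed to 1648 to 2496 and 513 to 615, with 5 of 6 tested called lower. Most of this sum was Spp1 (930 to 1608 in male and 342 to 424 in female libraries). Krt7 was higher in female libraries (1.86 on the log2 scale), and Epcam was at most 0.522 in any library. The 10 sinusoidal markers summed to 496 to 535 and 46.4 to 48.9, with 2 of 4 tested called higher and 2 lower. Most of the male sum was Lyve1 (498 ± 24.8 against 4.98 ± 0.566, SD, n = 3), while Gata4 (2.80 on the log2 scale) and Maf (1.37) were higher in female libraries, and Clec4g and Fcgr2b had 3 reads or fewer in every library. The 10 macrophage markers found of 12 summed to 7.55 to 9.99 in male and 13.2 to 15.8 in female libraries, and the 8 hepatocyte markers found of 10 to 9.41 to 13.4 and 24.5 to 47.9. In each of these lists 2 of 2 tested were called higher. For hepatocytes these were Ass1 (mean 8.97 in male and 28.3 in female libraries) and Apob, whose groups overlapped. Alb (means 0.584 and 0.0435) and Ttr (0.164 and 0), which were not tested, were lower in the female libraries. Emr1 and Cyp3a11 were at 0 in all 6 libraries, and lymphocyte markers were not analysed here. The part of these markers in the differences of the hydroxylases and Serpinh1 was not tested.

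The genes whose pattern was most like each member were sought among 8975 others with a mean of at least 10, by Pearson's r of log2(value + 1) over the 6 libraries. All such values share the same libraries and the same large contrast between groups, and they are descriptions. For Plod1 the most alike were Kansl3, Man2a2 and Mmp14 (r 0.999 for each), and for Plod3 they were Trim47, Mpzl1 and Ahi1 (0.999 for each). For Plod2 they were Lhfp (0.999), Lbh (0.994) and Fn1 (0.993), each with male 4 highest and the female libraries between it and male 5 and 6. Fn1, which encodes fibronectin, was read at 7488, 5215 and 5301 in the male libraries and 6195, 6248 and 6121 in the female ones. For P4ha2 they were Rnf169 (0.997), Bcl10 (0.997) and Prkca (0.994), and for P4ha1 Reep3 (0.992), Prpf8 (0.988) and Hnrnpk (0.987). For P4ha3 they were Fam193b (0.998), Zdhhc3 (0.998) and Atp6v1d (0.997), and for Serpinh1 Tm9sf3 (0.9995) and Kpnb1 (0.999).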

How the data were processed

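Poly(A)-enriched RNA was compared in 6 libraries. The submitters' processing notes name Bowtie2, RSEM, edgeR and mm39, without roles; versions and the annotation are not given in the sources used here. In the deposited signal columns each normalized read count is a whole multiple (within 0.05) of its column's smallest value above 0 for 100% of values; dividing by that value gave the reads. The deposited score is the authors' signed fold change, and 2 further columns hold a deposited p-value and its false discovery rate from the authors. Columns without a sample numbered 0.

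limma 3.58.1 in R 4.3.3 (eBayes with trend) was fitted to log2(value + 1) for the 12568 genes that reached 1 in 3 or more libraries, with Benjamini-Hochberg adjustment and a threshold of 0.05. The scale understates changes of low genes. Scripts were tested on simulated data. The members share at most 0.626% of their 50-mers with other genes (GENCODE M21).

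The members and gene lists were chosen with earlier results of these data known. The naming rule took all 7 members, every prolyl hydroxylase partner, and for other pathway lists the 2 largest called increases and decreases with groups apart, and 3 genes most like each member, of which 1 is not reported here. Older symbols were matched through RefSeq synonyms. Slc23a1, Gulo, Tll2, Asphd1 and 7 further marker genes outside the lymphocyte list were not analysed here. Alternatives were RLE and TMM factors, quantile normalization, pseudocount 0.1, no or a stricter filter (10), a replicate block, leaving out each library, edgeR 4.0.16, DESeq2 1.42.0 and voom on recovered reads; on those reads edgeR called 8651 genes and limma on the values 8704.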

Additional observations from a re-analysis of the deposited data

How the results depend on the processing

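Plod1, Plod3 and P4ha3 kept direction and call under every alternative run, and P4ha1 stayed uncalled with the same direction. All 7 genes kept their direction in every fit. The count of 8704 called genes stayed within 1.5 times, from 6518 with the filter at 10 to 9113 without male 4. Across genes, deviations from the group mean correlated between same-numbered male and female libraries at -0.0936, -0.0303 and -0.17. With 3 libraries per group and male 4 apart, these values cannot decide whether equal numbers were paired. With the replicate block, 1 of the 7 was called higher: Serpinh1 (0.2281, adjusted p 0.0605) was lost, and P4ha2 passed (-0.5407, adjusted p 0.0492). P4ha2 also passed under edgeR (-0.6236) and DESeq2 (-0.6235) but not voom (-0.5489, adjusted p 0.0614), and Plod2, uncalled, was 0.09 under edgeR and DESeq2. With each library left out in turn, the members called higher ran from 1 to 3, P4ha2 from -0.7299 to -0.2259, Plod2 from 0.0035 to 0.5774 and Serpinh1 from 0.1864 to 0.3034. The ratio of P4ha2 to P4ha1 was 0.3288 in the female and 0.4463 in the male libraries without length scaling, and 0.3748 and 0.5088 with the shortest coding transcripts over 2000 bases, a choice made after seeing the data, unlike the rest. The fewest reads of a member in any library were 803, for P4ha3 in male 5; whether depth limits the calls was not tested. The cause of the calls lost without 1 library was not tested.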
